A study of Mus musculus with 8 samples.

Results

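Rsph6a, Grp, Rgs14, Robo3, Dpep3, Tnfrsf18, Lmo1, Ckm, Pgf and 0610033M10Rik were examined as a group of genes that were near absent from mouse embryonic stem (mES) cells without treatment and present once CX-5461 had been given. The 10 genes, of 54146 gene rows in the count tables, were chosen by their GENCODE symbol because earlier results of these data showed them near 0 in control cells and higher with CX-5461. The difference between the libraries therefore selected them and is given as a description. Whether those earlier results also drew on how the genes were spread over single cells is not known. Rgs14, Robo3, Dpep3, Tnfrsf18, Lmo1, Ckm and Pgf were all among the leading genes by fold of the same cluster of CX-5461 cells. Their co-detection is therefore given as a description too. The question asked was whether a subset of the CX-5461 cells carried the genes together.

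Libraries of the 10x Genomics 3′ droplet system were compared between untreated mES cells, which are wild-type cells derived from the inner cell mass, and mES cells given CX-5461, both grown on a mouse embryonic fibroblast feeder layer in LIF/2i medium. The labels list 4 samples per condition, but every condition has a single table, its barcode names are serial numbers without a sample, and the methods give 1 biological replicate. Each condition therefore counted as 1 library, and the conditions were compared without a test. The dose and duration of CX-5461 in the single-cell experiment were not given in the sources used here. The control library kept 3767 cells with 49483868 unique molecular identifiers (UMIs, each marking 1 captured RNA molecule), a median of 12987 per cell, and the CX-5461 library kept 4697 cells with 68745851 UMIs, a median of 14213. Shared barcodes between the libraries could not be counted, since the names are serial numbers.

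CX-5461 inhibits RNA polymerase I, which transcribes the ribosomal RNA genes in the nucleolus. When ribosomal RNA synthesis stops, free ribosomal proteins bind Mdm2 and p53 accumulates, and p53 then activates target genes such as Cdkn1a, the inhibitor of cyclin-dependent kinases known as p21. A small fraction of mES cells in culture passes through a state that resembles the 2-cell embryo (2C-like) and is marked by genes of the Zscan4 family, which the transcription factor Dux activates. The genes examined here have no role in common: in the adult they are known from sperm flagella, neurons, T cells, skeletal muscle and placenta, and none is a usual gene of mES cells.

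The sequences around the transcription start of genes that were found in the same cells are shown first, since detection in the same cells raises the question of shared promoter sequence. The RefSeq promoter table (GRCm38.p6) held 9 entries for 7 of the 10 genes, each with 250 bases before and 50 bases after a transcription start. Those of Dpep3 (chr8:105979370-105979669, minus strand) and Robo3 (chr9:37433126-37433425, minus strand) belong to genes that were strongly co-detected, that of Rsph6a (chr7:19054437-19054736, plus strand) to the gene that was least so, and that of Ckm (chr7:19410844-19411143, plus strand) to a gene of muscle whose promoter holds the E-box; the RefSeq start of Ckm lies inside the GENCODE gene, downstream of its first base. Each is written 5′ to 3′ along the gene, and capitals mark the E-box CAGCTG and the GC box GGGCGG on either strand, where neighbouring GC boxes may overlap.
Dpep3: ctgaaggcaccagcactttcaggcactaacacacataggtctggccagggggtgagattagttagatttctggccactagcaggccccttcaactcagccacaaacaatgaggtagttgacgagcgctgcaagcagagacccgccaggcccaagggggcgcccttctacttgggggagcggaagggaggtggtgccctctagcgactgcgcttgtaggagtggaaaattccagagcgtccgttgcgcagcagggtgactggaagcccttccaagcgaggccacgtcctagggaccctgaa
Robo3: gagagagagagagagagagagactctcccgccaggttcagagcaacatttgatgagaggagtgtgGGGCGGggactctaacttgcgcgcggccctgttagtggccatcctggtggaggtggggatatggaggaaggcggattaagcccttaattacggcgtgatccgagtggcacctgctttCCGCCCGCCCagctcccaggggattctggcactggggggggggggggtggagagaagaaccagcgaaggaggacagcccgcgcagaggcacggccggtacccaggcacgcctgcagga
Rsph6a: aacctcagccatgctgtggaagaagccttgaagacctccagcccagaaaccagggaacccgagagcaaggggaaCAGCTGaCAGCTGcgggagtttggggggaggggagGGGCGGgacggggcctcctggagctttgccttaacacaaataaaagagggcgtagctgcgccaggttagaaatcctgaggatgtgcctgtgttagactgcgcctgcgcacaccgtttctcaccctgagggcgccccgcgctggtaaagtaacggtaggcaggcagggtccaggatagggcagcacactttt
Ckm: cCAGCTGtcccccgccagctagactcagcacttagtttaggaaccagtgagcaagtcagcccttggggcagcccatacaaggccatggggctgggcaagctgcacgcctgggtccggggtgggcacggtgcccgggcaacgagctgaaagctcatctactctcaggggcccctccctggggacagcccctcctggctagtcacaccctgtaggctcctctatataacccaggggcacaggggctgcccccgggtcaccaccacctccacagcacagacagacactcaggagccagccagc

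No motif searched was shared by all of these windows. CAGCTG, a palindrome bound by myogenic factors among others, stood in 3 of the 9 entries, those of Ckm and Rsph6a and 1 of Pgf, beside 16.3% of all 32851 promoters. GGGCGG, the core of Sp1 sites, stood in 5 entries from 4 genes (Lmo1, Pgf, Robo3 and Rsph6a), beside 35.7% of all promoters. ACATGTC, a form of the core of p53 sites, and GATTNAATC, the core of Dux sites, were searched on both strands and were found in 0 of the 9 windows; 2.01% and 0.268% of all promoters held them. TATAAA was also in 0 of the windows and in 13.6% of all promoters. The median CpG content, as observed over expected, was 0.498 in the entries of these genes and 0.384 in all promoters, and ranged from 0.185 in Tnfrsf18 to 0.945 in an entry of Lmo1. A letter match is a description of these windows and says nothing of binding.

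All 10 genes had a pooled level at least 10-fold higher in the CX-5461 library, a difference on which they had been chosen. Pooled levels are UMIs of a gene scaled to 1000000 UMIs of the library (CPM), not divided by transcript length, since 3′ libraries tag 1 end of each transcript. Of the 16185 genes whose UMIs in the 2 libraries summed to 50 or more, 3.21% were at least 10-fold higher, 22.3% at least 2-fold higher and 4.83% at most 0.5-fold in the CX-5461 library, with control counts under 3 set to 3. Summed over the 10 genes, the control library held 144 UMIs, or 2.91 CPM, and the CX-5461 library 16008, or 233 CPM, a ratio of 80.0 (67.9 to 95.0). Intervals here and below are exact at 95% and cover counting error only; the spread between cultures is unknown. The ratio of the median gene was above 1 on this scale (0.37 on the log2 scale), and scaling with TMM factors lowers every log2 ratio by the same amount (-0.35) and brings that median to 0.03. Of the genes past a 2-fold ratio, 82.2% were higher in CX-5461 without and 64.0% with TMM. The 10 genes stayed at least 10-fold higher with it, as did 2.47% of all genes tested, while 15.3% were at least 2-fold higher and 8.58% at most 0.5-fold.

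**Figure D1:**
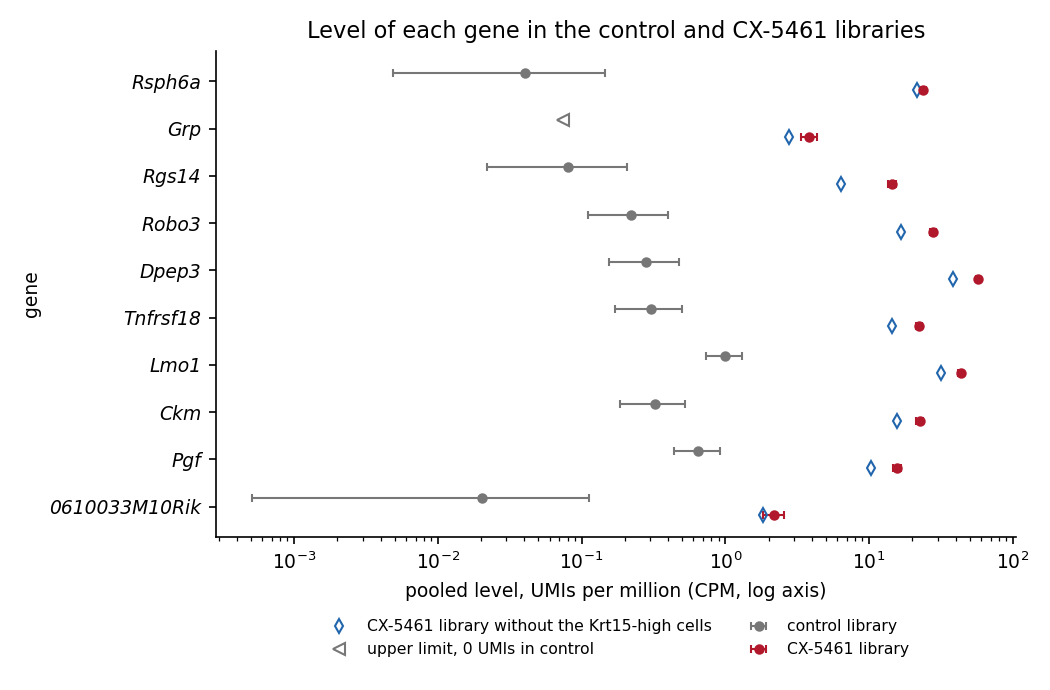
Pooled level of each gene in CPM (log axis) in the control library (grey) and the CX-5461 library (red), with 95% exact Poisson intervals that cover counting error, and in the CX-5461 library without the 287 Krt15-high cells (blue diamonds). Each red and blue point lies to the right of the grey interval of its gene; Grp had 0 control UMIs and is drawn at its upper limit.

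Of the secreted ligands, Grp was scarcer in single cells than Pgf. Grp encodes gastrin-releasing peptide, a neuropeptide of the bombesin family. It had 0 UMIs in control cells, which allows up to 0.0745 CPM, and 263 UMIs in CX-5461 cells, or 3.83 CPM (3.38 to 4.32), which is at least 63.1-fold higher if the floor for a library is put at 3 counts; the exact interval of the ratio starts at 51.0. It was found in 225 CX-5461 cells, 4.79% (4.20 to 5.44), with at most 4 UMIs in a cell. Pgf encodes placental growth factor, a relative of VEGF that binds the receptor Flt1. It had 32 control UMIs (0.647 CPM, 0.442 to 0.913) and 1073 CX-5461 UMIs (15.6 CPM, 14.7 to 16.6), a ratio of 24.1 (17.0 to 35.5), the lowest of the group. It was found in 756 cells, 16.1% (15.1 to 17.2). Of its control UMIs, 14 came from the 221 fibroblast-like cells, where it stood at 3.06 CPM, so feeder cells carried part of the few Pgf molecules seen without treatment.

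The receptors and the membrane enzyme were found in a larger share of cells. Robo3 is a roundabout-family receptor that steers commissural axons at the midline. It had 11 and 1917 UMIs in the control and CX-5461 libraries, or 0.222 and 27.9 CPM (26.7 to 29.2), a ratio of 125 (69.9 to 252), and 10 of the control UMIs lay in fibroblast-like cells. On the log2 scale its ratio was 6.97, and 8.77 without the fibroblast-like cells of both libraries, with the control count then set to the floor. Its share was 22.2% of CX-5461 cells. Tnfrsf18 encodes GITR, a costimulatory receptor of T cells in the TNF receptor family. It had 15 and 1529 UMIs, or 0.303 and 22.2 CPM (21.1 to 23.4), a ratio of 73.4 (44.3 to 131), in 19.0% of cells. Dpep3 encodes a membrane-anchored dipeptidase known from the testis. It had 14 and 3919 UMIs, or 0.283 and 57.0 CPM (55.2 to 58.8), a ratio of 201 (119.9 to 369). Found in 1756 cells, 37.4% (36.0 to 38.8), it reached the widest share of the group and up to 19 UMIs in a cell.

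Both regulators inside the cell had UMIs packed unevenly over cells, as did other genes of the group. Rgs14 is a scaffold that speeds GTP hydrolysis by Gi alpha subunits and is known from hippocampal neurons. It had 4 and 989 UMIs, or 0.0808 and 14.4 CPM (13.5 to 15.3), a ratio of 178 (69.3 to 654). Those UMIs sat in 495 cells, 10.5%, and the variance of its counts over cells was 3.22 times their mean. Counts spread evenly over cells of equal depth would give about 1, while Dpep3 gave 3.75, Robo3 2.84, Tnfrsf18 2.43 and 0610033M10Rik 1.10. The value also rises with the level of a gene and with differences in depth between cells, so it does not rank the genes by unevenness. Lmo1 is a LIM-only cofactor that bridges transcription factors without binding DNA. It had 49 control UMIs (0.990 CPM), the most of the group, and 2985 CX-5461 UMIs (43.4 CPM, 41.9 to 45), a ratio of 43.8 (33.1 to 59.4), in 34.5% of cells, and a variance of 2.55 times the mean.

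Ckm, the muscle creatine kinase that buffers ATP, had 16 and 1545 UMIs, or 0.323 and 22.5 CPM (21.4 to 23.6), a ratio of 69.5 (42.7 to 122), in 20.2% of cells. Rsph6a, a radial spoke head protein of the sperm axoneme, had 2 control UMIs and 1639 CX-5461 UMIs in 1017 cells, at 23.8 CPM (22.7 to 25). With so few control molecules its ratio of 589.9 is uncertain (163 to 4875), but even against the floor it ranked first of the 16185 genes. 0610033M10Rik is annotated as a long intergenic noncoding RNA, and no function is given to it here. It had 1 and 149 UMIs, a ratio of 107 (19.0 to 4264), at 2.17 CPM and in 141 cells, 3.00% (2.53 to 3.53), so single-cell statements about it rest on few molecules. For each of the 10 genes the 10 richest cells held between 3.85% and 12.1% of its CX-5461 UMIs.

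Any of the 10 genes was found in 3502 of 4697 CX-5461 cells (74.6%) and in 134 of 3767 control cells (3.56%). In the control library 5 cells held 2 of the genes and none held more, where 3.25 were expected if the genes were found independently. Since droplets also capture free RNA, the same shares were taken in the 166 fibroblast-like cells of the CX-5461 library, which had a median of 23434 UMIs. There the shares were 1.81% for Rsph6a, 0.602% for Grp, 1.20% for Rgs14, 2.41% for Dpep3, 4.82% for Lmo1, 1.20% for Ckm and 1.20% for 0610033M10Rik, below those of the whole library although these cells were deeper. Tnfrsf18 stood at 6.02% and Robo3 at 13.9%, also below the library. Pgf was found in 20.5% of the fibroblast-like cells (9.88 CPM, 7.02 to 13.5), above its share in the whole library. In the control library, too, fibroblast-like cells held Pgf at 3.06 CPM beside 0.401 in the other cells. Robo3 stood there at 2.19 beside 0.0223 and Lmo1 at 2.41 beside 0.846. For these genes the share in fibroblast-like cells cannot serve as a background of free RNA. A share of cells with Pgf is by itself not read as expression.

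With every cell thinned to 3100 UMIs the shares were lower, as fewer molecules must give, and the gap between libraries remained wide. This left out 824 control and 21 CX-5461 cells. Dpep3 was then found in 13.8% of CX-5461 cells and 0.170% of control cells, Lmo1 in 11.2% and 0.408%, and Rsph6a in 7.10% and 0.0340%. Across 10 equal bins of the CX-5461 cells by total UMIs, the summed level was 256 CPM in the shallowest, 381 in the third bin and 106 in the deepest. The deepest cells thus had the lowest level. Cell type differs with depth too, as the fibroblast-like cells had a median of 23434 UMIs and a mean of 0.536 of the genes. The counts and odds ratios of co-detection that follow were taken within bins of depth, and the levels by cluster and the correlations were not.

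The genes were found together in the same cells far more often than independent detection gives. If each gene were found at its own rate within 10 bins of total UMIs, independently of the others, 119 CX-5461 cells would hold 5 or more of them, and 450 did. For 7 genes the expected number was 2.06 cells and 84 were seen, and for 8 it was 0.145 against 49. There was an excess at the other end too: 1195 cells held none of the genes, where 594 were expected. The genes were thus bunched in some cells and missing from others. In cells thinned to equal depth, 78 held 5 or more where 0.700 were expected. No p-value is given, because the cells come from 1 library. The choice of the genes may itself have drawn on this spread, so the excess is a description.

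**Figure D2:**
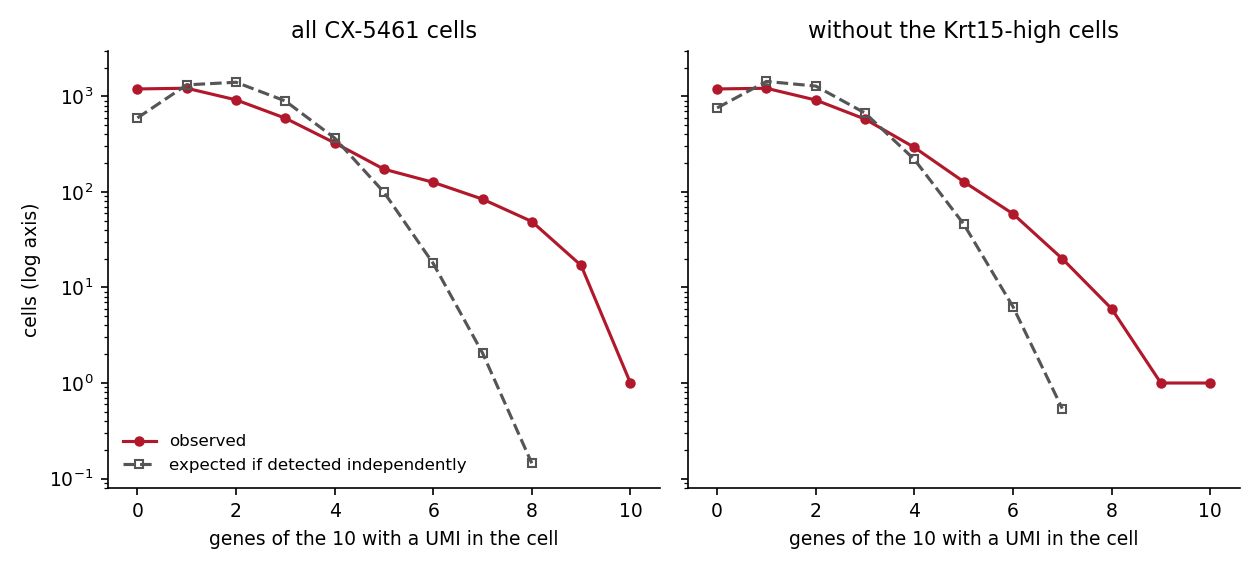
Number of CX-5461 cells (log axis) by how many of the 10 genes had a UMI in the cell, for all cells (left) and without the 287 Krt15-high cells (right). Red points are observed counts and grey squares the counts expected from independent detection within bins of total UMIs; 450 cells held 5 or more genes on the left and 215 on the right, beside 119 and 53 expected.

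The excess held for 45 of 45 pairs of genes. The odds ratio of co-detection, pooled over the depth bins by the Mantel-Haenszel method, had a median of 2.59 and a range of 1.38 to 6.34. Rgs14 stood in the highest pairs: it was found with Dpep3 in 377 cells (339.9 to 417 by counting error) where 193 were expected, an odds ratio of 6.34. With Robo3 it was found in 292 cells where 118 were expected, an odds ratio of 6.24. Its median odds ratio over the other 9 genes was 5.48. Rsph6a was at the other end, with a median of 1.73 and a lowest pair, with Tnfrsf18, of 1.38: 237 cells (208 to 269) against 196 expected. The medians of the other coding genes lay between 2.51 (Pgf) and 3.06 (Robo3), and that of 0610033M10Rik was 1.84. Rsph6a, the gene with the highest ratio between libraries, was thus the coding gene least tied to the others within the CX-5461 library.

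**Figure D3:**
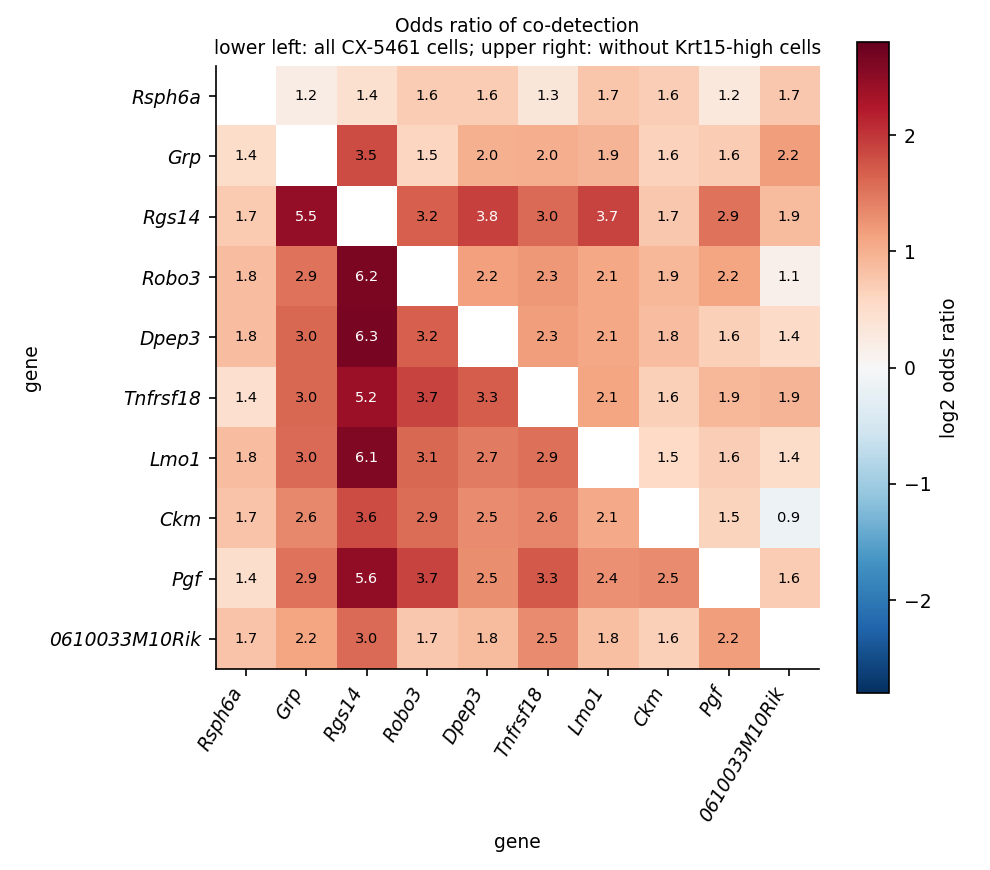
Odds ratio of co-detection of each pair of genes across CX-5461 cells, within bins of total UMIs; the colour is its log2 value and the number printed is the odds ratio. The lower left holds all CX-5461 cells (median 2.59, the row and column of Rgs14 highest and those of Rsph6a lowest) and the upper right the cells without the Krt15-high cluster (median 1.72).

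Levels in cells that held more of the other genes were many times higher. Cells thinned to 3100 UMIs were grouped by how many of the other 9 genes they held, and the level of the gene left out was read from the full counts of the same cells. Rgs14 stood at 3.66 CPM (3.12 to 4.27) in the 2898 cells with none of the others, 11.7 with 1, 33.8 with 2 and 145 (132 to 158) in the 260 cells with 3 or more. Dpep3 went from 30.9 to 404 CPM, Robo3 from 11.7 to 224, and Lmo1 from 24.7 to 249.7. Rsph6a went from 18.5 (17.3 to 19.8) to 71.9 (62.8 to 81.9). Even cells in which thinning left none of the other genes had levels far above the control library, where Rgs14 stood at 0.0808 and Rsph6a at 0.0404 CPM. At full depth 1195 CX-5461 cells held none of the 10 genes, so many of these cells held other genes of the group. The levels therefore do not show a gene present on its own.

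A cluster of 287 CX-5461 cells held the highest level of each gene. Cells of both libraries were clustered without the 10 genes, Cdkn1a and the Zscan4 genes. The cluster with the highest Krt15 level, a keratin of basal epithelium that was itself at 0 control and 1351 CX-5461 UMIs, held 6.11% of the CX-5461 cells, 5.18% of their UMIs and 0 control cells, and is called the Krt15-high cluster here. It held 35.1% of the UMIs of the 10 genes. Its cells had a median of 6 of the genes, with 0 cells holding none, beside a median of 1 in the 4159 other ES-like CX-5461 cells. At least 5 of the genes were found in 235 of its cells (81.9%) and in 4.91% of the other ES-like cells. Its median depth of 12420 UMIs was below the 14291 of the other ES-like cells, and its median mitochondrial share was 4.11% beside 4.13%. The 90th percentile of depth was 16386 UMIs in the cluster and 21114 in the other ES-like cells, so its cells were not the deepest ones; no doublet caller was run here. Its 10 leading genes by fold were Krt15, the integrin Itgb2, the phosphatase Dusp13, Rgs14, Robo3, Dpep3, Tnfrsf18, Lmo1, Ckm and Pgf. Rsph6a, Grp and 0610033M10Rik were not among them. No ES-like cluster held cells of both libraries, so cluster and library cannot be told apart for ES-like cells.

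Levels in the Krt15-high cluster exceeded those in the other ES-like CX-5461 cells by a factor that differed between genes. Dpep3 stood at 401 CPM beside 39.4, a ratio of 10.2 (9.52 to 10.9). Rgs14 had the widest gap, at 161 beside 6.55 CPM, a ratio of 24.6 (21.6 to 28.1), and 58.0% of its UMIs lay in the cluster. Rsph6a had the narrowest, at 68.8 beside 22.6 CPM, a ratio of 3.05 (2.65 to 3.50), with 14.9% of its UMIs there. The intervals of these ratios do not overlap, so Rgs14 was more concentrated in the cluster than Rsph6a beyond counting error. Robo3 was 14 times, Pgf 11.2 times, Tnfrsf18 11.1 times, Ckm 8.99 times, Grp 8.30 times, Lmo1 7.69 times and 0610033M10Rik 4.45 times the level of the other ES-like cells. Of 14353 genes with at least 50 UMIs in these cells, 13.8% were at least 2-fold higher in the cluster and 10.1% at most 0.5-fold. Since the other genes of the same cells built the cluster, these ratios are descriptions and no test was made. The choice of the genes may also have drawn on such levels.

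**Figure D4:**
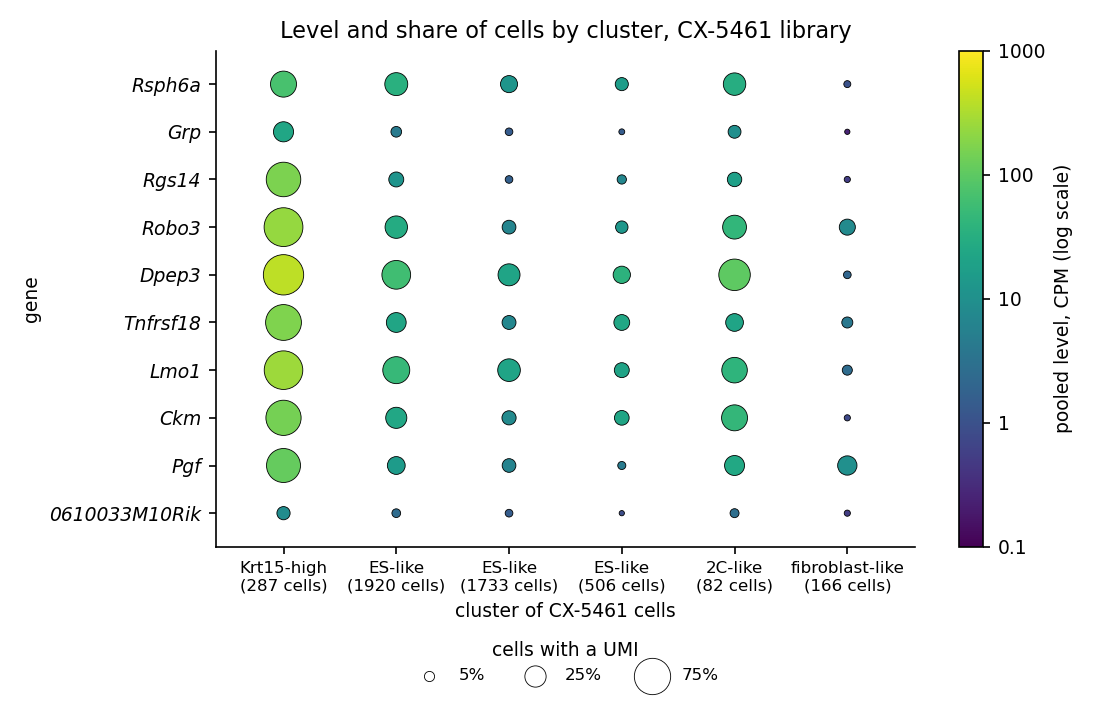
Pooled level (colour, CPM on a log scale) and share of cells with a UMI (circle area) of each gene in the clusters of CX-5461 cells with over 30 cells. The Krt15-high column is brightest for each gene, the ES-like cluster of 1920 cells stands above that of 1733 cells, and the fibroblast-like column is darkest except for Pgf and Robo3.

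The genes were not confined to that cluster. Without it, all CX-5461 cells still had Dpep3 at 38.2 CPM, 135 times the control level (80.3 to 247), and Rsph6a at 21.4 CPM. Rgs14 was at 6.37 CPM, beside 14.4 in all cells, and still 78.8 times control (30.5 to 290.4). Pgf had the lowest ratio without the cluster, 15.9 (11.2 to 23.5). Of the 450 cells with 5 or more genes, 235 were in the cluster and 215 outside it, where 53 were expected from independent detection among the remaining cells. The median odds ratio of pairs was 1.72 without the cluster, with 44 of 45 pairs above 1; the exception was Ckm with 0610033M10Rik at 0.908. Odds ratios of pairs were thus lower outside the cluster. Observed over expected cells with 5 or more genes stood at 4.05 there and 3.77 in all CX-5461 cells. That ratio moves with how often each gene is detected, which was less often outside the cluster. These values therefore do not compare the strength of bunching.

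Levels also differed among the other ES-like clusters. An ES-like cluster of 1920 cells had Dpep3 at 58.7 CPM (55.9 to 61.6), Lmo1 at 47.3, Rsph6a at 34.3 and Robo3 at 28.0. An ES-like cluster of 1733 cells had Dpep3 at 21.7 (20.1 to 23.5), Lmo1 at 22.0, Rsph6a at 12.3 and Robo3 at 6.71. The larger cluster was the higher for each gene, and the intervals overlapped for 0610033M10Rik. Rgs14 differed the most between them, at 11.7 (10.5 to 13.1) and 1.63 (1.21 to 2.17) CPM. The 506 cells of a shallow ES-like cluster, with a median of 5974 UMIs and 15.6% mitochondrial, had Dpep3 at 37.1 and Tnfrsf18 at 24.1 CPM, the latter above its level in the ES-like cluster of 1920 cells, and Pgf at 4.42, below the 6.20 of the cluster of 1733 cells. They were seen with 5 or more genes in 5 cells.

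The stem cell markers stood lower in the Krt15-high cells. Of 10 markers, 5 (Tdgf1, Utf1, Fgf4, Nanog and Zfp42, named after their values were seen) were at most 0.5-fold of their level in the other ES-like CX-5461 cells, beside 10.1% of all genes tested. Tdgf1, a Nodal co-receptor, was at 48.6 CPM beside 319.7, and Nanog at 75 beside 236. Summed over the 10 markers, of which Dppa5a made up most, they stood at 5124 CPM in the Krt15-high cluster, 8167 in the other ES-like CX-5461 cells and 415 in fibroblast-like cells. The mean ratio of these markers to their level in all cells was 0.536, close to the limit of 0.5 for the name ES-like, so the cluster is called by Krt15 and not by a cell type. Pou5f1, the factor also known as Oct4, was at 469 CPM beside 762, and Dppa5a at 4098 beside 5964. Fibroblast markers were at 34.3 CPM beside 19.3 in the other ES-like cells and 6772 in the fibroblast-like cells, with 1 of 14 at 0 and 11 higher than in the other ES-like cells. Col1a1 at 20.2 CPM made up much of that sum, and Acta2 was at 0.843. Primitive endoderm markers summed to 25.6 CPM beside 12.9, most of it from Cubn at 16, while Lama1 was at 2.53 beside 6.05 and Dab2 (named after its value was seen) was at 0 in the cluster.

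Cdkn1a differed little between the Krt15-high cluster and the other ES-like cells. It stood at 239 CPM in control and 635 in CX-5461 cells, a ratio of 2.66 (2.61 to 2.72), and at 2500 in the fibroblast-like cells of the latter. Among ES-like cells it stood at 612 CPM in the Krt15-high cluster and 519 outside it, a ratio of 1.18 (1.13 to 1.23). CX-5461 cells above the median Cdkn1a level of their depth bin were set against the rest. The odds ratio of finding a gene in the upper cells had a median of 1.25 over the 10 genes and ranged from 1.01 (Ckm) to 1.69 (0610033M10Rik). In levels, Rgs14 was at 16.1 CPM (14.8 to 17.5) in the upper and 12.6 (11.5 to 13.9) in the other cells. Ckm was at 22.7 and 22.3 CPM and Lmo1 at 44.5 and 42.3, with overlapping intervals. The median with Cdkn1a was thus below that of pairs of the genes themselves. Cdkn1a was split at its median and the genes by any UMI, so the sizes of these odds ratios are not strictly comparable. In thinned cells the median with Cdkn1a was 1.05.

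Mdm2, the p53 target whose product degrades p53, had higher odds ratios than Cdkn1a with each gene but Rsph6a. Its odds ratios had a median of 1.77 and ranged from 1.09 (Rsph6a) to 2.84 (Rgs14), and the median was 1.37 without the Krt15-high cluster, where that of Cdkn1a was 1.22. Rgs14 was at 23.0 CPM (21.4 to 24.6) in the cells above the median of Mdm2 and 5.79 (5.01 to 6.65) in the rest. Mdm2 itself stood at 294 CPM in the Krt15-high cluster and 121 in the other ES-like cells, a ratio of 2.42 (2.27 to 2.58). Ccng1, another p53 target, had odds ratios with a median of 1.19 and a highest of 1.49. Of 30 p53 targets, 19 were at least 2-fold higher and 1 (Rrm2b, singled out after its value was seen) at most 0.5-fold in the CX-5461 library, beside 22.3% and 4.83% of all genes tested, with a median log2 ratio of 1.37 beside 0.37 over all genes tested; with TMM factors 15 were at least 2-fold higher. In the Krt15-high cluster 9 of the 30 were at least 2-fold higher and 1 (Plk3, named for the same reason) at most 0.5-fold relative to the other ES-like cells, beside 13.8% and 10.1% of all genes, and 26 of them were higher there by any amount. The most abundant of them, Rps27l and Bax, were at 2793 and 1210 CPM in the cluster and 2251 and 956 outside it. The death receptor Fas, named after its value was seen, was at 62.9 and 9.79 CPM.

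The Zscan4 genes marked other cells than the Krt15-high cluster. Each of the 8 Zscan4 genes with at least 50 UMIs was at least 2-fold higher in the CX-5461 library, from 2.61 times for Zscan4d (2.09 to 3.27) through 3.17 for Zscan4c, 3.34 for Zscan4-ps2, 3.49 for Zscan4e, 3.53 for Zscan4a, 3.90 for Zscan4-ps3 and 4.99 for Zscan4f to 8.36 for Zscan4-ps1; Zscan4b had 6 and 25 UMIs. Over all genes tested 22.3% were at least 2-fold higher. With TMM factors the 8 stayed so, beside 15.3% of all genes. The near-identical Zscan4 copies may share reads, so they are not separate calls and were summed. Summed Zscan4 stood at 3250 CPM in the 82 2C-like CX-5461 cells, 7.02 in the Krt15-high cluster and 5.60 in the other ES-like cells. A Zscan4 UMI was found in 11 of the 287 Krt15-high cells, 3.83% (1.93 to 6.75), and in 2.98% (2.49 to 3.54) of the other ES-like cells, and these intervals overlap.

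The genes were also present in 2C-like cells, at levels nearer to the ES-like cluster of 1920 cells than to the Krt15-high cluster. Dpep3 was at 103 CPM (84.7 to 124) in 2C-like cells, Ckm at 44.5 (32.7 to 59.1), Robo3 at 42.6 and Rsph6a at 31.2 (21.5 to 43.8). For Dpep3 and Ckm these intervals lie above those of the ES-like cluster of 1920 cells, and for Rsph6a they overlap. At least 5 of the genes were in 10 of the 2C-like cells (12.2%). Over all CX-5461 cells, the 207 cells with a Zscan4 UMI gave odds ratios with a median of 1.30, and 1.45 without the Krt15-high cluster. Mdm2 and Cdkn1a had lower medians without it, but they were split at their medians, so these values are not strictly comparable. In all CX-5461 cells the odds ratios with Zscan4 ranged from 0.764 for 0610033M10Rik to 1.71 for Ckm. Dpep3 was at 81.5 CPM (71.6 to 92.4) in the 207 cells and 55.9 (54.1 to 57.7) in the rest, while Tnfrsf18 was at 22.4 and 22.2, with overlapping intervals.

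**Figure D5:**
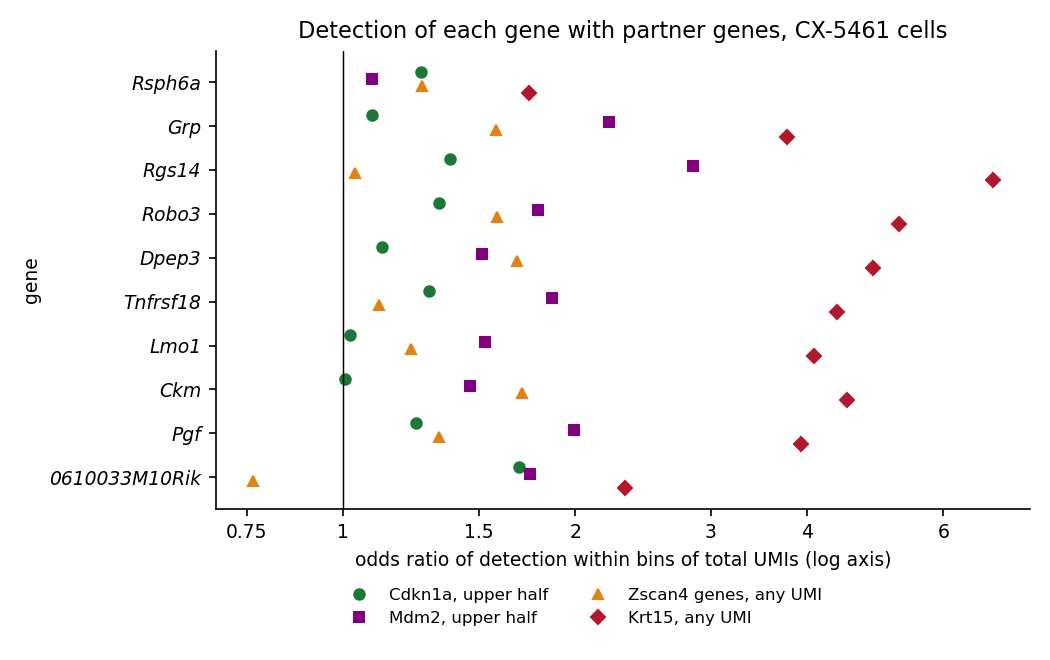
Odds ratio (log axis) of finding each gene in CX-5461 cells above the median of Cdkn1a or Mdm2, or with a UMI of a Zscan4 gene or of Krt15, within bins of total UMIs; the vertical line marks 1. The Krt15 diamonds lie furthest right for each gene, with a median of 4.22, and the medians for Mdm2, Zscan4 and Cdkn1a are 1.77, 1.30 and 1.25.

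Krt15 had the highest odds ratios of these partners. Like Zscan4 it was cut at any UMI, whereas Cdkn1a and Mdm2 were split at their medians, so the sizes are not strictly comparable. The 716 cells with a Krt15 UMI gave odds ratios from 1.74 (Rsph6a) to 6.96 (Rgs14), with a median of 4.22, and 2.43 without the Krt15-high cluster. Krt5, the keratin that pairs with Krt14 in basal keratinocytes, had 1 and 1292 UMIs and stood at 80.3 CPM in the cluster beside 16.2 in the other ES-like cells. The listed keratinocyte markers, in contrast, summed to 54.5 CPM in the cluster beside 68.4, a ratio of 0.796 (0.686 to 0.920). Of these 10 markers 5 were at 0 in the cluster. Sfn was at 30.6 beside 51.9 CPM, and Itgb4 (named after its value was seen) at 10.4 beside 4.62. Among 11112 genes with at least 200 UMIs, the 5 whose log-normalized level was most correlated with that of the summed group across 4446 ES-like CX-5461 cells were Fkbp10 (Pearson r = 0.560), Krt15 (0.548), 9530053A07Rik (0.530), Dusp13 (0.519) and Krt7 (0.513). Fkbp10 encodes a collagen chaperone, Dusp13 a dual-specificity phosphatase and Krt7 a keratin of simple epithelia. The cells share 1 library and differ in depth, so these correlations are descriptions; without the Krt15-high cluster they were 0.379, 0.284, 0.409, 0.319 and 0.359 in the same order. Like the group, Dusp13 was near absent in control, with 14 UMIs there and 2671 in the CX-5461 library, whereas Fkbp10 had 567 and 4213. The lowest correlations were those of the histone gene H2afz (r = -0.507) and the tubulin Tuba1b (-0.436), both named after their values were seen. Pou5f1 had r = -0.306, Nanog r = -0.257, Mdm2 r = 0.304 and Cdkn1a r = 0.142.

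Of the listed relatives of the genes, 16 of 49 with enough UMIs (32.7%) were at least 2-fold higher in the CX-5461 library, beside 22.3% of all genes tested, and 11 with TMM factors. In the Krt15-high cluster 11 of 42 (26.2%) were at least 2-fold higher than in the other ES-like CX-5461 cells, beside 13.8% of all genes. Another 6 were at most 0.5-fold, beside 10.1% of all genes. These were Rsph9 (0.144 times), Rgs19 (0.250), Tnfrsf22 (0.495), Tnfrsf23 (0.460), Ldb1 (0.421) and Vegfb (0.386), named after their values were seen. Of the 9 radial spoke and axoneme genes with enough UMIs, 3 were at least 2-fold higher with CX-5461 (2 with TMM factors): Rsph9, Hydin and Nme5, named after their values were seen, of which Nme5 stood at 0.243 and 5.60 CPM and, in the Krt15-high cluster, at 5.70 times its level in the other ES-like cells (4.45 to 7.24). The most abundant, Cfap20, was at 49.1 and 61.3 CPM, followed by Dnajb13 at 4.45 and 7.62 and Rsph3b at 2.43 and 4.10. Nmb, the other bombesin-like peptide, was at 4.87 and 18.6 CPM and, unlike Grp, was as high in the other ES-like cells as in the Krt15-high cluster (19.3 and 19.9 CPM). Among the RGS proteins and their partners 4 of 10 were at least 2-fold higher (Rgs10, Rgs12, Rgs3 and Rap2a, the last 3 named after their values were seen), 3 with TMM factors. Rgs12, Rgs3 and Rap2a were 3.28, 2.62 and 2.83 times as high in the Krt15-high cluster as in the other ES-like cells. Rgs10 was at 10.5 and 39.0 CPM, and the G protein subunits Gnai2 at 171 and 173 and Gnai3 at 21.9 and 16.5.

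The roundabout receptors and slits listed as relatives of Robo3 were scarce. Slit2 was at 4.43 and 2.39 CPM, Slit3 at 1.48 and 2.62 and Robo1 at 1.82 and 2.12; 1 of 4 in this list, Slit1 (named after its value was seen), was at least 2-fold higher, at 0.121 and 1.53 CPM, and stood 8.07 times as high in the Krt15-high cluster as in the other ES-like cells (5.13 to 12.5). Tex101, a germ cell surface protein that forms a complex with Dpep3 in testis, was at 0.566 and 5.44 CPM, a ratio of 9.61 (6.54 to 14.7). In the TNF receptor list 3 of 8 were at least 2-fold higher, Tnfrsf19, Eda2r and, named after its value was seen, Fas (1 with TMM factors, Fas); Tnfrsf12a was at 24.4 and 27.2 CPM, Eda2r at 7.86 and 16.9 and Tnfrsf19 at 6.75 and 15.9. None of the LIM-only list passed a 2-fold ratio: Ldb1, which binds Lmo1, was at 16.3 and 26.9 CPM and Lmo4 at 6.28 and 4.97. Among the creatine genes the brain isoform Ckb was at 315 and 476 CPM, the transporter Slc6a8 at 29.5 and 47.9 and the mitochondrial kinase Ckmt1 at 5.92 and 38.9, so that Ckmt1 and Gatm (named after its value was seen) were the 2 of 5 past 2-fold. Ckmt1 was 2.16 times as high in the Krt15-high cluster as in the other ES-like cells. Ckb and Slc6a8 were lower there, at 0.586 and 0.638 times, and the summed list stood at 0.695 times (0.660 to 0.732). In the VEGF list 1 of 9, the co-receptor Nrp2, was at least 2-fold higher, at 10.0 and 21.3 CPM (0 with TMM factors), and Vegfb and Vegfc were at 10.7 and 5.75 CPM in the CX-5461 library.

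Marker lists of the tissues in which these genes are known gave the highest counts for muscle, and each count is to be read against the 22.3% of all genes that were at least 2-fold higher and the 4.83% at most 0.5-fold. Of 9 muscle markers with enough UMIs, 7 were at least 2-fold higher with CX-5461 and 1 (Acta1, named after its value was seen) at most 0.5-fold, with a median log2 ratio of 2.04 beside 0.37 over all genes tested and the same counts under TMM factors. Their summed level was 33.1 CPM in control, 80.7 in the other ES-like CX-5461 cells and 317 in the Krt15-high cluster, where Des, the muscle intermediate filament, was at 189 beside 33.9 CPM and Tnnt1 at 13.5 beside 18.3. For spermatids, 2 of 12 markers had enough UMIs, Odf2 at 23.9 and 30.2 CPM and Prm2 at 0.141 and 0.713. Spermatogonia and spermatocyte markers had 4 of 10 at least 2-fold higher and 2 at most 0.5-fold (2 and 2 with TMM factors). The counts were 1 and 1 of 7 for trophoblast, 1 and 2 of 5 for T cell and blood, 1 and 0 of 5 for neuron and 2 and 0 of 3 for keratinocyte markers. With TMM factors these counts were 0 and 2, 1 and 2, 1 and 1, and 2 and 0 in the same order. Their median log2 ratios were 0.64 for the spermatogonia and spermatocyte list, 0.29 for trophoblast, -0.19 for T cell and blood, 0.53 for neuron and 1.44 for keratinocyte. Their most abundant members were Tfap2c, Laptm5, Stmn2 and Sfn, at 22.4, 49.1, 142 and 48.8 CPM in the CX-5461 library.

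The genes lie on 8 chromosomes, and their nearest detected neighbours had lower ratios than they did. In GENCODE coordinates of GRCm38, Rsph6a (ENSMUSG00000040866.13) is at chr7:19054690-19074447 and Ckm (ENSMUSG00000030399.2) is at chr7:19404776-19422841, both on the plus strand and 330.3 kb apart with 29 annotated genes between them. On the plus strand too, Tnfrsf18 (ENSMUSG00000041954.18) is at chr4:156026164-156028895, Rgs14 (ENSMUSG00000052087.14) is at chr13:55369732-55384687 and Grp (ENSMUSG00000024517.16) is at chr18:65872820-65886596. On the minus strand, 0610033M10Rik (ENSMUSG00000108236.1) is at chr6:51400966-51402219, Lmo1 (ENSMUSG00000036111.8) is at chr7:109138572-109175207, Dpep3 (ENSMUSG00000031898.9) is at chr8:105973513-105979429, Robo3 (ENSMUSG00000032128.15) is at chr9:37415669-37433246 and Pgf (ENSMUSG00000004791.7) is at chr12:85166635-85177790. Of the 20 nearest genes on either side with at least 50 UMIs, 8 were at least 2-fold higher with CX-5461 (6 with TMM factors), 40% beside 22.3% of all genes tested, and 0 at most 0.5-fold. Hepacam, an adhesion protein 29.1 kb from Robo3, had the highest ratio, with 2 and 57 UMIs (20.5, 5.42 to 173). Sympk ends 72 bases before Rsph6a on the same strand and was at 9.74 and 20.8 CPM, a ratio of 2.13, and Dmwd on its other side at 9.09 and 19.0. Klc3 and Mark4 beside Ckm had ratios of 2.64 and 1.78, and Slc12a4 and Dus2 beside Dpep3 3.84 and 1.79. Nfe2l3 and Gm31579 around 0610033M10Rik had 5.58 and 2.81, and Stk33 and Ric3 around Lmo1 3.81 and 1.26. For Grp (Sec11c and Lman1), Rgs14 (Lman2 and Grk6), Tnfrsf18 (Sdf4 and 9430015G10Rik), Pgf (Rps6kl1 and Eif2b2) and the other side of Robo3 (Msantd2) the ratios lay between 0.959 and 1.71.

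Genes annotated on the opposite strand across Dpep3, Tnfrsf18, Lmo1 and Ckm had few UMIs. Gm45752 over Dpep3 had 32, A930016O22Rik over Ckm 8, Gm16008 over Tnfrsf18 4 and Gm44781 over Lmo1 0 UMIs in the CX-5461 library. The authors' column of ambiguous counts was 0 for each of the 10 genes in both libraries.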

How the data were processed

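Single-cell RNA-seq of mES cells (10x Genomics 3′ libraries, untreated or given CX-5461) was taken as the authors deposited it, as tables of UMI counts, not normalized, per GENCODE gene and cell barcode (mm10), with a column of ambiguous counts beside the genes. The labels' processing notes name Seurat 2.3.4. Cells were kept from 500 UMIs upward where mitochondrial UMIs made up no more than 20%, the filter that the methods state, which leaves more cells per library than the study plotted. No doublet caller was run. Counts of a gene were summed over the cells of a library or cluster and divided by the summed UMIs (CPM), with exact Poisson intervals for levels, exact conditional binomial intervals for ratios and Clopper-Pearson intervals for shares. A control count of 0 was set to a floor of 3 counts per library, which also served for counts under it in the share of all genes past a fold. Genes with under 50 UMIs were left out of such shares. Cells were clustered in scanpy 1.11.5 (log-normalization to 10000, 2000 variable genes without the 10 genes, Cdkn1a and Zscan4, 16 components, 15 neighbours, Leiden resolution 0.500). Fibroblast-like and 2C-like clusters were named from at least 3 markers among their 50 leading genes by fold. A remaining cluster was called ES-like on 2 conditions. The mean ratio of the ES markers to all cells was at least 0.5, and the median depth was at least 0.333 of the library median. TMM factors came from edgeR 4.0.16 in R 4.3.3, and other values from Python 3.11.15, scipy 1.17.1 and numpy 2.4.6. The scripts were tested on simulated data. Named were the 10 genes, Cdkn1a, the Zscan4 genes, Krt15 and Krt5, the 3 most abundant listed relatives of each gene, the 5 genes most correlated with the group, the nearest gene on each side with at least 50 UMIs, and the most abundant markers of a list. The genes and lists were chosen with earlier results of these data known. Promoters of 3 of the genes and protein sequences were not used here.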

Additional observations from a re-analysis of the deposited data

How the results depend on the processing

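With 1 library per condition, the spread between cultures was not measured, and every interval covers counting error alone. No paired analysis was possible because the cell barcodes carry no sample, and leaving out a replicate was not possible for the same reason. The summed log2 ratio of the group, 6.32, was 5.98 with the TMM factor, 6.65 as a mean over cells, 6.71 without fibroblast-like cells and 5.77 without the Krt15-high cluster; the last 2 settings, and all others that leave out that cluster, were chosen after seeing the data. The share of genes at least 10-fold higher, 3.21%, was 2.06% among genes with at least 200 UMIs and 1.97% with no filter. Observed over expected cells with 5 or more genes, 3.77, was 4.58 without depth bins and 111 in thinned cells, where the number expected was under 1. It was 4.05 without the Krt15-high cluster and 3.77 in the other ES-like cells, but it moves with detection rates, so its size is not comparable between sets of cells. The median odds ratio of pairs, 2.59, was 1.72 without the Krt15-high cluster and 1.63 in the other ES-like cells, and that with Krt15, 4.22, was 2.43 without the cluster. The cluster's share of the group's UMIs, 35.1%, was 34.3% at Leiden resolution 1. None of these changed direction. Among single genes, the log2 ratio stayed between 3.99 and 10.05 in every setting run; the mean over cells moved it beyond its counting interval for 4 of 9 genes, leaving out fibroblast-like cells for Robo3 and Pgf, and leaving out the Krt15-high cluster for Lmo1 and Pgf. Depth limits Grp and 0610033M10Rik most, which had too few UMIs for a statement on single cells of the smaller clusters.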
